A study of Mus musculus with 2 samples.

Results

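The mitochondrial ribosomal protein genes are the nuclear genes named Mrpl or Mrps, whose proteins are imported into mitochondria and built into the mitoribosome. They were chosen by name alone, as every gene symbol of the deposited tables made of Mrpl or Mrps, a number and at most 1 further letter, with pseudogenes left out. This gave 77 members of 34745 genes. Of these, 50 encode proteins of the large subunit and 26 encode proteins of the small subunit, and Mrps36 stands apart because its protein belongs to the 2-oxoglutarate dehydrogenase complex. Subunits were assigned from textbook knowledge, and Mrps30 and Mrps18a were counted with the large subunit, where their proteins sit despite their names.

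RNA was sequenced from LSKs, the lineage-negative, Sca1-positive and c-Kit-positive cells of bone marrow (BM) that hold the hematopoietic stem and progenitor cells. All mice were Scl/tTA-BA animals on a C57BL/6 background, in which the tet-off transactivator is driven by Scl control sequence and BCR/ABL (BA) is switched on when doxycycline is removed. The week-0 library is the control, from mice kept on doxycycline, and the week-3 library is from mice 3 weeks after doxycycline withdrawal. Each library was made from the LSKs of 3 mixed mice, so that there was 1 library per time point, no replicate check of any difference and no estimate of the spread between mice. The mouse age was not given in the sources used here. The comparison asks how the expression of LSKs differed between the libraries before and after BA was induced. Doxycycline was present at week-0 and absent at week-3, so an effect of the drug itself cannot be told apart from that of BA.

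Mitoribosomes translate the few messenger RNAs of the mitochondrial genome, which all encode parts of the respiratory chain and the ATP synthase. Their RNA comes from mitochondrial DNA and their proteins come from nuclear genes, so the subunits can only be completed when both genomes are expressed. Some of these proteins have a counterpart in the bacterial ribosome and others were added in mitochondria. In hematopoiesis, mitochondrial translation is known for its inhibitors, some antibiotics among them, which act on leukemic stem cells.

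Nearly every measured member was higher in the week-3 library under each scaling tried. Reads were found in both libraries for 76 of the 77 members, with 50 to 1257 reads per member at week-0 and 56 to 949 in the week-3 library. The FPKM, fragments per kilobase of exon scaled by the reads of the library, was higher at week-3 for 74 of the 76 members. The same was true of 53.7% of the 15377 genes above 0 in both libraries, and of 60.5% of the 7775 genes with at least 50 reads in each. The median log2 ratio of week-3 over week-0 was 0.59 over the members, with quartiles of 0.35 and 0.88, against 0.09 over all genes tested and 0.17 over the genes with at least 50 reads. No member was below the lower quartile of the latter genes, and 43 of the 76 were above their upper quartile of 0.55. Scaling by TMM or by median-of-ratios lowered every log2 ratio by 0.11 or 0.09. The members were then higher at week-3 in 70 or 72 of 76 cases, against 7558 or 7688 of the 15377 genes tested.

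**Figure D1:**
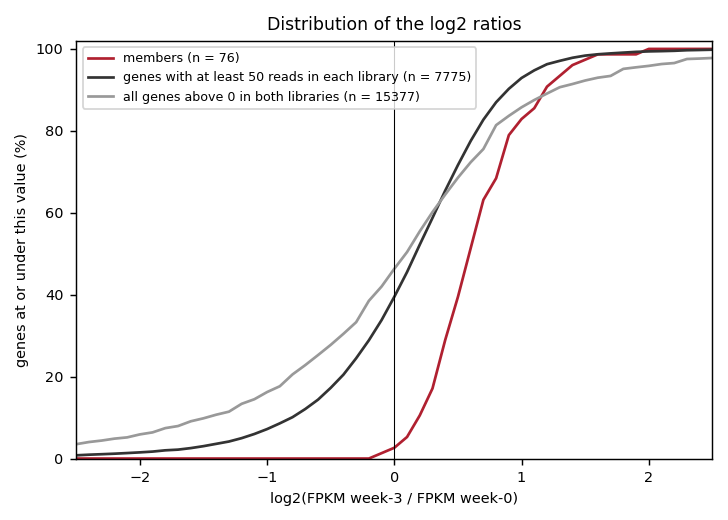
Share of genes (%, y axis) whose log2 ratio of FPKM at week-3 over week-0 is at or under the value on the x axis, for the 76 members and for both sets of comparison genes. The curve of the members lies to the right of both others up to a log2 ratio of 1.1 and to the left of that of all genes from 1.2 on.

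Together the members took 30066 reads at week-0, which is 0.473% of the library (95% exact binomial interval 0.468% to 0.478%). At week-3 they took 27621 reads, which is 0.711% (0.702% to 0.719%). The share was 1.5 times as high at week-3, with an interval from 1.48 to 1.53. Intervals here hold the error of counting reads alone, with each read taken as independent, and the mice of a library were not kept apart. Amplification makes reads of one molecule many, so the intervals may be too narrow even for counting. In RNA of a mixed cell population, fewer cells of a type and less RNA per cell cannot be told apart.

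A member was called higher when its FPKM ratio was at least 2 and the exact test of edgeR, run on the reads and adjusted over all genes tested, gave a q-value under 0.05. With 1 library per time point the biological coefficient of variation was assumed to be 0.1, and the test compares the libraries, not the conditions. By this rule 13 of 76 members were called higher, which is 17.1%, against 8.11% of all genes tested and 7.09% of the genes with at least 50 reads. No member was called lower at a ratio of at most 0.5, against 10.1% and 7.19%. With the wider limits of 1.5 and 0.67, 37 members were called higher, or 48.7%, against 14.6% of all genes. Over the genes with at least 50 reads the count was 38 of 76, against 20.4%. No member was called lower with these limits, against 13.6% and 13.9%. The numbers called higher depend on the assumed variation. With a coefficient of 0.2, 7 members were called at each limit, and with 0.4 none was.

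The counting interval of the log2 ratio lay above 0 for 66 members, spanned 0 for 10 and lay below 0 for none. For 61 members it lay above the median of all genes, 0.09, and the count above the 0.17 of genes with at least 50 reads was not made. Nor were such counts of intervals made over the other genes. The log2 ratio was between 0 and 0.5 for 28 members, between 0.5 and 1 for 33 and over 1 for 13. The shift was thus spread over the group, and most members moved by less than 2 times. At or under 0.5 were 39.5% of the members, against 68.6% of all genes and 71.7% of the genes with at least 50 reads. At or under 1 were 82.9%, against 85.8% and 92.9%.

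**Figure D2:**
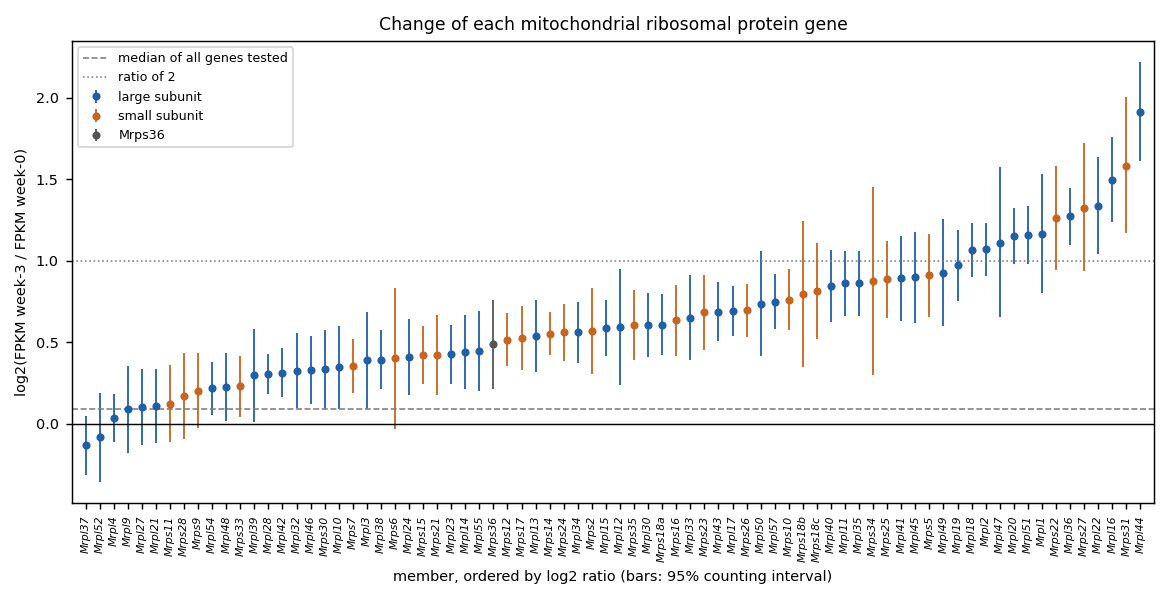
Log2 ratio of FPKM at week-3 over week-0 (y axis) of the 76 members above 0, ordered along the x axis, with 95% counting intervals as bars and the subunits in colour. Members of both subunits are mixed along the order, only Mrpl37 and Mrpl52 lie under 0 on the deposited scale (6 members do under TMM), and Mrpl44 is the highest at 1.91.

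Mrpl44, whose protein has the fold of a ribonuclease III and sits in the large subunit, had the largest difference. It lies on chromosome 1 of GRCm38 from 79776018 to 79781445 (ENSMUSG00000026248). Its 130 reads in the week-0 library gave an FPKM of 8.86, and its 299 reads in the week-3 library gave 33.3. The log2 ratio was 1.91 (interval 1.61 to 2.22, q = 4.717e-12), or 3.76 times. Its FPKM was below the members' median at week-0 and above it at week-3.

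Mrps31, a small subunit protein added in mitochondria, followed with 77 and 141 reads. Its FPKM was 7.89 at week-0 and 23.6 at week-3, a log2 ratio of 1.58 (interval 1.17 to 2.0). Mrpl16, which lies near the catalytic centre of the large subunit, had an FPKM of 27.6 and 78.0 in the same order and a log2 ratio of 1.5 (1.24 to 1.76). Both were called higher, and the intervals of the leading 3 members overlap, so their order is not resolved by counting alone.

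Mrpl22, which lines the exit tunnel for the new peptide, went from an FPKM of 19.1 to 48.3, a log2 ratio of 1.34. Mrps27, a small subunit protein with pentatricopeptide repeats, went from 7.83 to 19.6, a log2 ratio of 1.33, on 92 and 141 reads. Mrpl36, one of the smallest proteins of the large subunit, had many more reads, 460 and 679, and its FPKM was 80.5 and later 194. Its log2 ratio of 1.27 therefore had a narrow interval, 1.10 to 1.45. Mrps22, another small subunit protein without a bacterial counterpart, had a log2 ratio of 1.26 (FPKM 4.83 and 11.6). The remaining members of the leading 10 were Mrpl1 and Mrpl51 at 1.16 and Mrpl20 at 1.15. Mrpl1, a protein of a mobile stalk, rested on 111 and 152 reads, Mrpl51 on 453 and 617 and Mrpl20 on 477 and 648. The other three called members, Mrpl47, Mrpl2 and Mrpl18, had log2 ratios of 1.11, 1.07 and 1.06. Just under the limit of 2 times was Mrpl19 at 0.97, and it was called at 1.5 times only.

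At the other end, Mrpl37 had 701 reads (week-0) and 391 reads (week-3). Its FPKM was 18.4 and 16.8, a log2 ratio of -0.13 with an interval from -0.31 to 0.05 (q = 0.7615). Mrpl52 had an FPKM of 21.5 and 20.3 and a log2 ratio of -0.08 (-0.36 to 0.19). Both encode large subunit proteins added in mitochondria, and a difference from 0 was not detectable for either at this depth. Mrpl4, which shares the exit tunnel with Mrpl22, had 961 and 602 reads, an FPKM of 118 and 121 and a log2 ratio of 0.03 (-0.11 to 0.18). Next came Mrpl9 at 0.09, Mrpl27, which reaches the catalytic centre in bacteria, at 0.10, and Mrpl21 at 0.11. Under TMM these 4 were also lower at week-3, and under median-of-ratios scaling only Mrpl4 and Mrpl9 joined Mrpl37 and Mrpl52. Mrps11 was at 0.12, Mrps28 at 0.17 and Mrps9 at 0.20, and their intervals spanned 0 as well. The interval of Mrpl54, at 0.22, ran from 0.05 to 0.38. The interval of Mrpl37 lies wholly under those of all 13 members called higher at 2 times, but both were picked by these same ratios.

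Members differed far more in level than in their change. Over the 76 members the FPKM at week-0 ran from 2.15 to 200 with a median of 17.7, a range of 93.2 times. At week-3 it ran from 3.94 to 249 with a median of 26.6. The order of the levels was kept largely between the libraries, with a Spearman correlation of 0.945 of the log2 FPKM over the 76 members. Pearson's r was 0.960. The members share the same 2 libraries, and both FPKM of a member are divided by the same length. Mrpl42, a large subunit protein added in mitochondria, was the highest with an FPKM of 200 at week-0 and 249 at week-3, on 848 and 644 reads. It was followed by Mrpl34 with 124 and 183, Mrpl36 with 80.5 and 194, and Mrps16 with 100.1 and 156. Mrpl4 with 118 and 121 and Mrpl28 with 100.8 and 124 completed the highest 6. Mrpl36 thus moved from below Mrpl34, Mrpl4, Mrpl54, Mrpl28 and Mrps16 to above them.

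Mrps34 had the lowest level of the measured members, with 50 and 56 reads and an FPKM of 2.15 and 3.94. It was followed by Mrpl47 with 2.24 and 4.82, Mrpl1 with 2.48 and 5.56, Mrpl33 with 3.85 and 6.04, Mrps18b with 3.71 and 6.43 and Mrpl3 with 4.4 and 5.77. All 6 had a higher FPKM at week-3. Mrpl47 and Mrpl1 were called at 2 times, Mrpl33 and Mrps18b at 1.5 times, and Mrps34 (q = 0.05245) and Mrpl3 (q = 0.2756) at neither. The log2 ratio of the 76 members had a Pearson r of -0.161 with their log2 mean FPKM, and of -0.303 with their log2 reads.

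**Figure D3:**
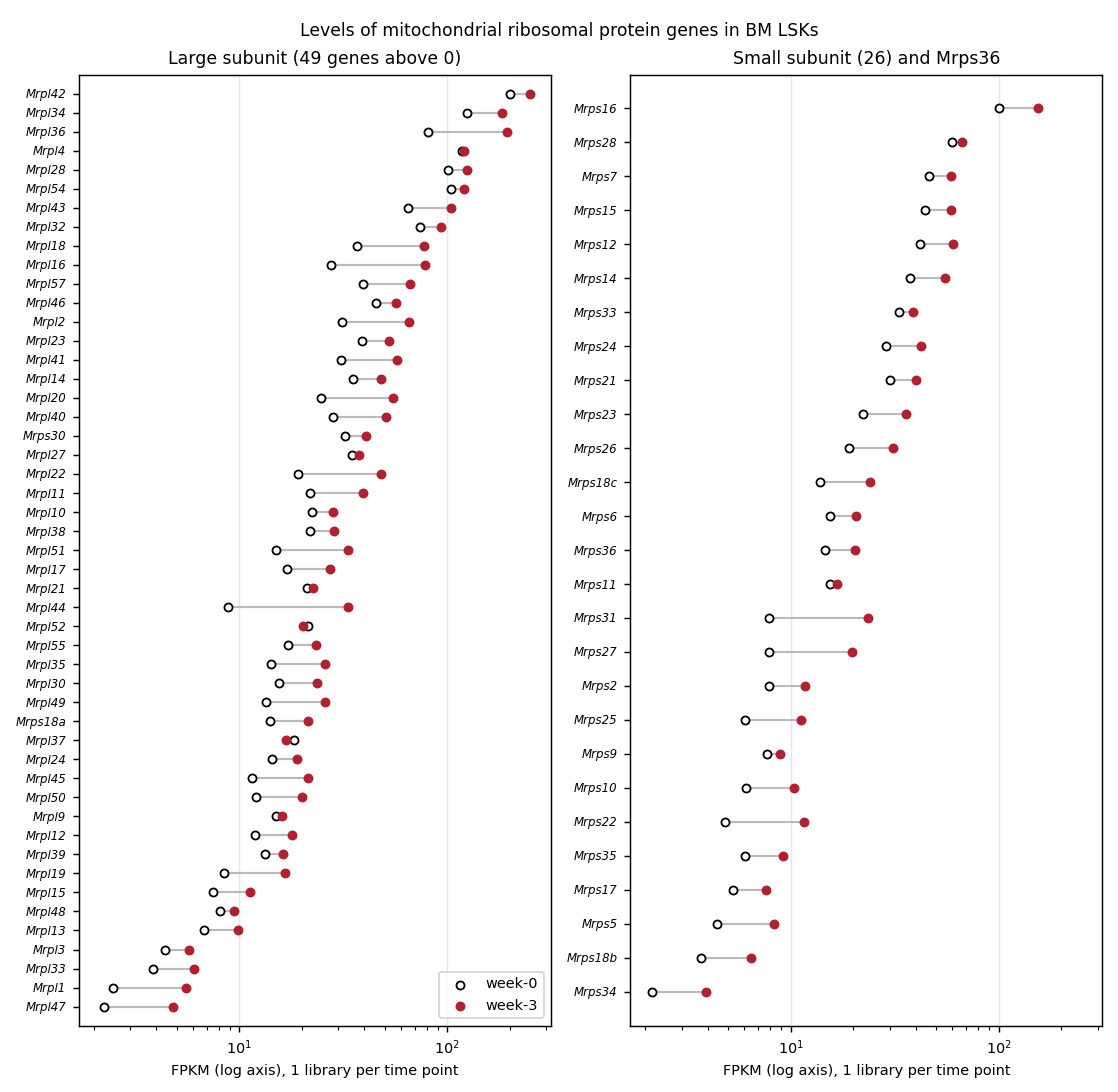
FPKM (x axis, log scale) of each member above 0 at week-0 (open points) and week-3 (filled points), with large subunit members on the left and small subunit members and Mrps36 on the right, ordered by mean FPKM. The filled point lies to the right of the open one except for Mrpl37 and Mrpl52 (with TMM also Mrpl4, Mrpl9, Mrpl21 and Mrpl27), and levels range from Mrps34 at 2.15 to Mrpl42 at 249.

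The order of the levels depends on the length used for each gene, which cancels in the ratios. The log2 ratios themselves had a Pearson r of 0.178 with the log2 transcript length over the 76 members. The length behind the deposited FPKM, worked out from reads and FPKM, was 566 to 13836 bases for the members, with a median of 2723. For Mrps17 it was 13836 bases, where the exons in GENCODE M21 cover 6490, so it is not the plain exon length of the gene. How it was formed is not given in the sources used here. This length was more than 2 times that of the transcript with the longest coding sequence in GENCODE M21 for 32 of the 76 members. For Mrps10 it was 11.8 times as long and for Mrps16 0.22 times. Counted per kilobase of that transcript and scaled to the library as the FPKM are, Mrps10 was at 72.2 at week-0 where its FPKM was 6.13, and Mrps16 was at 22.0 where its FPKM was 100.1. Mrpl42, for which both lengths are the same, was the highest on both scales. On this second scale the lowest was Mrpl47 at 3.37, followed by Mrps34 at 4.18.

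Mrpl53, a large subunit protein, was listed at 0 reads in both libraries, which allows a level of up to 3 reads, or 0.472 CPM at week-0 and 0.772 CPM at week-3. It lies on chromosome 6 from 83109040 to 83109939, and 88.0% of its exon bases overlap other genes, among them Gm42688 on the same strand. Whether reads that fit both genes were left uncounted was not tested.

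The subunits showed about the same shift. Of 49 large subunit members above 0, 47 were higher at week-3 (43 under TMM), with a median log2 ratio of 0.59 and a share of reads of 0.319% at week-0 and 0.483% at week-3. All 26 small subunit members were higher, also under TMM and median-of-ratios scaling, with a median of 0.59 and a share of 0.150% and 0.222%. The log2 ratio of the summed reads was 0.60 (interval 0.57 to 0.63) for the large and 0.56 (0.52 to 0.61) for the small subunit, so the intervals overlap. Called at 2 times were 10 of the 49 large subunit members and 3 of the 26 small subunit members, Mrps31, Mrps27 and Mrps22. The share called was 8.11% over all genes tested and 7.09% over the genes with at least 50 reads.

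Split by origin, 46 measured members encode proteins with a counterpart at the same position of the bacterial ribosome, and 29 encode proteins particular to mitochondria. Their median log2 ratios were 0.56 and 0.70, and their summed reads gave 0.59 (0.56 to 0.62) and 0.58 (0.54 to 0.62). Within the subunits the split went in opposite directions. In the small subunit, the summed reads of the 10 mitochondria-specific members had a log2 ratio of 0.72 (0.64 to 0.80), above the 0.50 (0.45 to 0.55) of the 16 shared ones. The 3 called members of the small subunit were all among those 10. In the large subunit, the 30 shared members were at 0.64 (0.60 to 0.68) and the 19 mitochondria-specific ones at 0.53 (0.48 to 0.58). These intervals do not overlap within either subunit, but they cover counting error only. The medians of the large subunit groups, 0.59 and 0.61, did not show this order.

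The Mrps18 paralogs, whose proteins sit at different places of the mitoribosome, were all higher at week-3. Mrps18a had an FPKM of 14.1 and 21.4, Mrps18b of 3.71 and 6.43 and Mrps18c of 13.8 and 24.2. Their log2 ratios of 0.61, 0.79 and 0.81 had overlapping intervals, and each was called at 1.5 times only. Mrpl12, the mobile stalk protein that recruits translation factors, had an FPKM of 11.9 at week-0 and 17.9 at week-3, a log2 ratio of 0.59 (0.24 to 0.95, q = 0.09304). Mrpl10, which anchors that stalk, had an FPKM of 22.3 and 28.3 and a log2 ratio of 0.35 (0.09 to 0.60). Mrps30 had 32.3 and 40.6 and a log2 ratio of 0.33. Mrps36 had 14.6 and 20.5 and a log2 ratio of 0.49 (0.21 to 0.76). None of these last 4 was called with either limit.

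Since nearly all members differed in the same direction, the sequences at their starts were compared, and those of a few members are printed. RefSeq gave a promoter on GRCm38.p6 for 68 of the 77 members, and a window from 250 bases before the start to the first 30 bases of the transcript was searched on both strands. The GC content of the members' windows had a median of 58.2%, against 52.5% over all 27025 promoters and 60.0% over those of the 10450 genes above 0 in both libraries. The motif CCGGAAG, the core bound by ETS family factors such as GABP, was found in 22 of the 68 windows, or 32.4%. It was found in 8.70% of all promoters and in 16.7% of those of the expressed genes. The NRF1 motif GCGCATGC, bound by a factor known for genes of mitochondrial function, was in 8 windows, or 11.8%, against 2.67% of all and 5.0% of the expressed. The YY1 motif AAGATGGC was also in 8 windows, against 2.38% and 3.54%. At least 1 of these was in 45.6% of the members' windows, against 12.9% of all and 23.3% of the expressed. The E-box CACGTG was in 7.35% (6.89% of all, 9.59% of the expressed) and CCAAT in 36.8% (36.6% and 37.6%). The TATA motif TATAAA was in 5.88%, against 13.7% and 7.0%. A match describes these letters and is not a bound site.

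Presence of a motif did not order the log2 ratios clearly. The 21 measured members with the ETS motif had a median of 0.68 and the 46 without it 0.56, whereas the medians were 0.50 with and 0.61 without the NRF1 motif, and 0.56 with and 0.61 without the YY1 motif. The 5 members with an E-box had a median of 1.07, and the 62 without it 0.58. These 5 were Mrpl36, Mrpl20, Mrpl2, Mrps18c and Mrpl37, so they held 3 members called at 2 times and also the lowest member of all. No test was made on these splits. Of the members with the largest log2 ratio, Mrpl44 had none of the 6 motifs, Mrps31 had a CCAAT on the opposite strand, Mrpl16 had a TATA motif alone, Mrpl22 had an ETS and an NRF1 motif and Mrps27 an ETS and a YY1 motif. Of those with the smallest, Mrpl37 had an E-box and a CCAAT on each strand and Mrpl52 had an ETS motif in 2 places. The windows of these 7 members are given from 5′ to 3′ on the strand of the gene, with matches to the ETS, NRF1, YY1, E-box and CCAAT letters on either strand in capitals.
Mrpl44 (chr1:79775768-79776047, plus strand): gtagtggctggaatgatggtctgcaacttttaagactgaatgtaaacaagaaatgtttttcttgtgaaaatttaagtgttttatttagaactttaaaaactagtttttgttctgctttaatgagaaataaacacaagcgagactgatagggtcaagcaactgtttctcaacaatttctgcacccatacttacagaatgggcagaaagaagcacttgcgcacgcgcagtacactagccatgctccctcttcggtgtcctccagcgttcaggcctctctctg
Mrps31 (chr8:22411090-22411369, plus strand): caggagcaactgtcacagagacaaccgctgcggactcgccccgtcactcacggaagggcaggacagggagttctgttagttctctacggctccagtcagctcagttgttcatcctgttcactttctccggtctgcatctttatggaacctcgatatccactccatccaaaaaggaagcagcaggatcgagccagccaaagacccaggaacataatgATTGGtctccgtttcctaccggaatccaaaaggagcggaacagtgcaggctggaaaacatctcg
Mrpl16 (chr19:11770165-11770444, plus strand): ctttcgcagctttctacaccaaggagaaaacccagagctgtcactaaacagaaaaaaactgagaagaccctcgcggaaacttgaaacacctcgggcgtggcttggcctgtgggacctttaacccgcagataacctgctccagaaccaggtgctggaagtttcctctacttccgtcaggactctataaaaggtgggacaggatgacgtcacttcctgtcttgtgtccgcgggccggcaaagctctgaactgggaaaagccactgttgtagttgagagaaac
Mrpl22 (chr11:58171414-58171693, plus strand): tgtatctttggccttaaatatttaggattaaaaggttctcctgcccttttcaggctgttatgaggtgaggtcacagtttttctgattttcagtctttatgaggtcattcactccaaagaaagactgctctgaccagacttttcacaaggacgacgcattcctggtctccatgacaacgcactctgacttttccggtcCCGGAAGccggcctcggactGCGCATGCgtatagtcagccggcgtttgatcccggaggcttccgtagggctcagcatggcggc
Mrps27 (chr13:99344536-99344815, plus strand): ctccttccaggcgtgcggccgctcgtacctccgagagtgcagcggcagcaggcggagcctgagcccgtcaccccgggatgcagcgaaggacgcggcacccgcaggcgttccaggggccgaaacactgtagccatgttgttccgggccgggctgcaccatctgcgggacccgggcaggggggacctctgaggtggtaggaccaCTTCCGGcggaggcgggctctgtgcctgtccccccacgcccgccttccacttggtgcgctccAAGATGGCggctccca
Mrpl37 (chr4:107066837-107067116, minus strand): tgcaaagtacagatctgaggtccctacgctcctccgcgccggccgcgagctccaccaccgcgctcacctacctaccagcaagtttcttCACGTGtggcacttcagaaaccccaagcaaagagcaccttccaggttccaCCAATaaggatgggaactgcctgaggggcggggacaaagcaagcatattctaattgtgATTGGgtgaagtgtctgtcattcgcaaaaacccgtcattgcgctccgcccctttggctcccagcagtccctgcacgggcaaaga
Mrpl52 (chr14:54426659-54426938, plus strand): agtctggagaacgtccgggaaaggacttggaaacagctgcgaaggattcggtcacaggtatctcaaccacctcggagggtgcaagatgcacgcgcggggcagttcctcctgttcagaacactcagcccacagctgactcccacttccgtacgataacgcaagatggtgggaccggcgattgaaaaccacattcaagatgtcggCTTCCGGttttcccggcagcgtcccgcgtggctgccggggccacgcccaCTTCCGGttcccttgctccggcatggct

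Many members share their start region with another gene. For 33 of the 77, or 42.9%, a coding gene on the opposite strand starts within 1000 bases in GENCODE M21. This was so for 10.9% of all 21951 coding genes and for 16.2% of the 12867 of them that were above 0 in both libraries. Mrps11 and Mrpl46, with starts 412 bases apart on chromosome 7, are partners of each other and had log2 ratios of 0.12 and 0.33, both in the lower part of the members. Of the 31 partner genes that are no members, 30 were above 0 in both libraries and 21 of these were higher at week-3 (18 under TMM), with a median log2 ratio of 0.29. Their summed reads had a log2 ratio of 0.04 (0.00 to 0.08) and Fau, a cytosolic ribosomal protein gene next to Mrpl49, gave 9320 and 4750 of them. The partner of Mrpl44, Wdfy1, had 132 and 122 reads and a log2 ratio of 0.60. Over the 27 pairs with at least 20 reads of the partner in each library, Pearson's r of the log2 ratios was 0.182, where both genes of a pair share the libraries. Members with such a partner had a median log2 ratio of 0.69 and those without one 0.57.

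Exons of 32 members overlap those of another gene, mostly on the opposite strand. The strand setting used for counting was not given in the sources used here, so that reads of such a pair may not be told apart. The 45 members without overlap had a median log2 ratio of 0.59, the same as the 31 measured members with it, and 43 of the 45 were higher at week-3. Called at 2 times were 7 of the 45, against 8.11% of all genes tested. Of the members named above, the overlap was 7.7% of exon bases for Mrpl44 (with Wdfy1), 24.2% for Mrps27 and Mrpl47 and 77.8% for Mrps34. Mrps31, Mrpl16, Mrpl22 and Mrps22 had none.

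The other genes of mitochondrial translation were taken from lists of textbook membership. Beside the counts called in these and later lists stand the shares over all genes tested, 8.11% higher at 2 times and 14.6% at 1.5 times. Called lower were 10.1% at 0.5 and 13.6% at 0.67. Among the genes with at least 50 reads, the shares called higher were 7.09% and 20.4%. Of 7 mitoribosome proteins with other names, which include the member Mrpl57, 6 were higher at week-3 and 3 were called at 1.5 times, with a median log2 ratio of 0.47. Ptcd3, a pentatricopeptide repeat protein of the small subunit, was the highest with an FPKM of 3.54 and 6.73, a log2 ratio of 0.93. Mrpl57 followed at 0.75 and Ict1, now named Mrpl58, which frees stalled peptides, was at 0.74 with an FPKM of 3.95 and 6.59. The lowest were Gadd45gip1 at 0.33 and Dap3, a GTP-binding protein of the small subunit, with an FPKM of 9.77 and 9.75 and a log2 ratio of 0.00 (-0.20 to 0.20).

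Among 16 measured translation factors, 13 were higher at week-3, and 2 were called at 2 times and 6 at 1.5 times, with a median of 0.59. The elongation factor Guf1, with 77 and 143 reads, was at 1.60 (1.19 to 2.02). Tsfm, the exchange factor of the elongation factor Tufm, had an FPKM of 12.6 and 28.7 and a log2 ratio of 1.18. The lowest were the release factor Mtrf1l at -0.72 (-1.19 to -0.26, q = 0.0714) and Metap1d, which removes the first methionine, at -0.16. Pdf was listed at 1 read at week-0 and at 0 at week-3.

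Of 22 genes of mitoribosome assembly and rRNA modification, 18 were higher (17 under TMM), with a median of 0.58. Called at 2 times were 3, and at 1.5 times 8 higher and 1 lower. The helicase Ddx28 had an FPKM of 8.0 and 22.4, a log2 ratio of 1.49 (1.15 to 1.83), and Ftsj2, an rRNA methyltransferase, was at 1.24. Mrm1, another methyltransferase, had 247 and 82 reads and the lowest log2 ratio, -0.88 (-1.26 to -0.52), and was the gene called lower. It was followed by Tfb1m at -0.70, on 69 and 26 reads, among genes with at least 20 reads in each library.

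Of 20 aminoacyl-tRNA synthetases and amidotransferase subunits, 17 were higher (15 under TMM) and 3 were called at 2 times, with a median of 0.42. Pars2, for proline, was at 2.10 but on 21 and 55 reads (interval 1.35 to 2.90), and Qrsl1 was at 1.10. Fars2, for phenylalanine, was at -0.64 and Gatc at -0.42, and neither was called. Mitochondrial DNA maintenance and transcription stood closer to all genes, with a median of 0.12 and 11 of 17 higher (9 under TMM). Tefm, the transcription elongation factor, was at 2.29 (1.67 to 2.95) on 29 and 87 reads and was called at 2 times, and Mterf2 was at 0.96. The polymerase Polg was at -0.73 and called lower at 0.67, and Mtpap, which adds poly(A) to mitochondrial transcripts, was at -0.69. Tfam, which packs mitochondrial DNA, had an FPKM of 8.17 and 10.3, a log2 ratio of 0.33 (0.06 to 0.59, q = 0.3566).

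The messenger RNAs that mitoribosomes translate were also higher. All 13 mitochondrially encoded mRNAs had a higher FPKM at week-3 under each scaling, with a median log2 ratio of 0.73, and their share of the reads was 1.24% at week-0 and 2.16% at week-3. mt-Nd1 was at 1.06 and called at 2 times, mt-Nd6 was at 0.98, and 8 in all were called at 1.5 times. The lowest were mt-Nd3 at 0.32 and mt-Co2 at 0.41. The rRNAs of the mitoribosome were not analysed here, since no gene was matched under the names mt-Rnr1 and mt-Rnr2. Of 74 nuclear genes of the respiratory chain and ATP synthase, 72 were higher (68 under TMM and under median-of-ratios scaling), with a median of 0.46. Of the 74, 3 were called at 2 times, against 8.11% of all genes tested and 7.09% of the genes with at least 50 reads. At 1.5 times 16 were called, against 14.6% and 20.4%.

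The cytosolic ribosome did not show this. Of 78 measured cytosolic ribosomal protein genes, 39 were higher and 39 lower at week-3 (33 higher under TMM), with a median log2 ratio of 0.00 and quartiles of -0.20 and 0.30. Their share of the reads was 8.25% at week-0 and 8.08% at week-3. Their summed reads had a log2 ratio of -0.03 (-0.04 to -0.02), and the interval of the members, 0.56 to 0.61, lies apart from it. Both intervals cover counting error only. Of the 78, 1 was called higher at 2 times, and at the wider limits 8 were called higher and 1 lower.

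**Figure D4:**
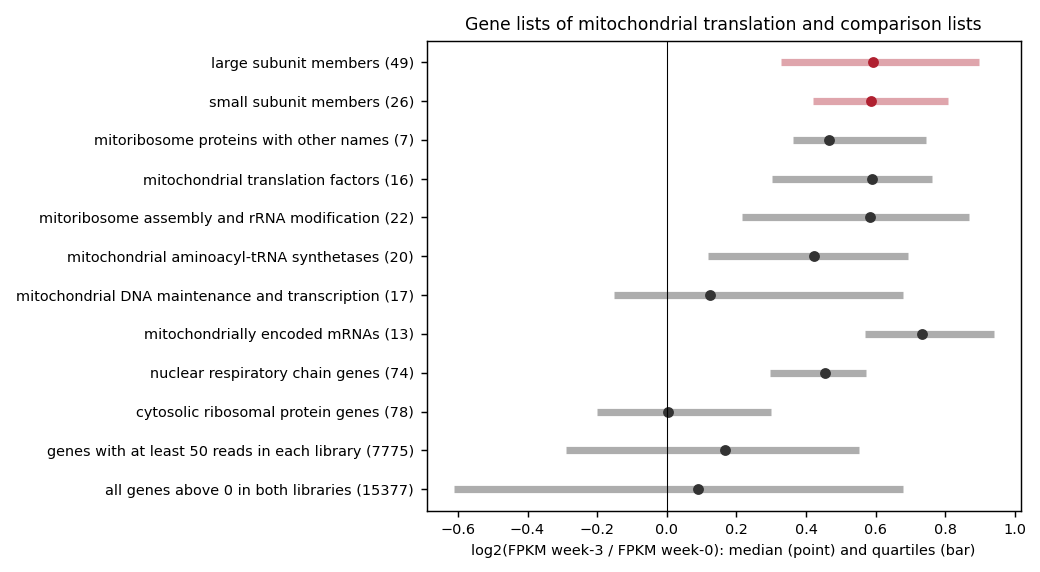
Median (point) and quartiles (bar) of the log2 ratio of FPKM at week-3 over week-0 for the members by subunit, for other lists of mitochondrial genes and for comparison genes, with the number of genes above 0 in both libraries in brackets. The medians of the members are 0.59, that of the mitochondrially encoded mRNAs is 0.73 and that of the cytosolic ribosomal protein genes is 0.00.

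Genes of factors known to act on mitochondrial genes differed in both directions. Of 12 listed, 11 were measured and 7 were higher at week-3 (6 under TMM and under median-of-ratios scaling), with a median log2 ratio of 0.51 and quartiles of -0.41 and 0.73. At 2 times 2 were called higher and 1 lower, and at 1.5 times 3 higher and 3 lower. Myc had an FPKM of 13.7 and 20.1 and a log2 ratio of 0.56 (0.41 to 0.70, q = 0.03868), under the limit of 1.5 times. Nrf1 had 2.75 and 2.73, a log2 ratio of -0.01, and Gabpa had 2.28 and 2.35, a log2 ratio of 0.04. Yy1 had 6.13 and 8.72, a log2 ratio of 0.51 (q = 0.1882). Esrra was at 1.60 and Ppargc1b at 1.25, both called higher on 27 and 50 and on 24 and 35 reads. Pprc1 was at -0.86 with 627 and 211 reads, Gabpb1 at -0.81, and Hcfc1 at -1.10 and called lower. Ppargc1a had 9 reads in the week-0 library and was listed at 0 in the other.

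The libraries also differed in other genes. All 7 LSK markers were detected in both libraries, with Kit at an FPKM of 16.9 and 11.5 and Ly6a, which encodes Sca1, at 19.8 and 14.8, and 6 of the 7 were lower at week-3. Their summed FPKM was 262 and 109.5, with Flt3 at 157 and 38.9 (log2 ratio -2.02) and Mecom at -1.10, both called lower at 2 times. The summed FPKM of the neutrophil markers was 1619 at week-0 and 8031 at week-3, with 7 of 7 higher. Elane gave the most of this sum, with 933 and 5143, and Ltf the least, with 1.78 and 11.5. The summed FPKM of the mast cell markers was 136 and 1895, with 6 of 7 higher. Monocyte markers were at 235 and 419, with 4 of 4 higher, and megakaryocyte markers at 28.7 and 37.6, with 2 of 4 higher. Erythroid markers were at 605 and 41.9, with 6 of 6 lower. B and plasma cell markers were at 271 and 7.51, with 5 of 5 lower. Jchain alone gave 220.5 and 6.76 of this, and Ms4a1 (9 and 2 reads) and Pax5 (5 and 2 reads) were not called. T cell markers were at 1.09 and 0.298, with Cd3e and Cd8a at 0 reads at week-3. Of 12 proliferation genes 10 were higher, with a median log2 ratio of 0.23. Mki67 was at -0.06 and Rrm2 at 2.12, and 4 were called higher and Ccna2 lower at the wider limits. The libraries differed in depth, with 6356164 (week-0) and 3886695 (week-3) reads on genes. The part of these differences in the values of the mitochondrial ribosomal protein genes was not tested. With 1 library per time point it cannot be told apart from BA induction or from the removal of doxycycline.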

How the data were processed

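RNA-seq of BM LSKs of Scl/tTA-BA mice was analysed, with 1 library at week-0 and 1 at week-3, each of 3 mixed mice. The authors prepared cDNA with a SMARTer low-input kit, sequenced paired ends and mapped them to GRCm38 (mm10) with TopHat2 2.0.9. The counting tool and the annotation are not given in the sources used here. Counts were deposited by the authors as whole numbers of reads per gene. FPKM were deposited beside them, scaled by the authors by a length for each gene and by total reads. From these, the log2 FPKM ratio was computed without a pseudocount, with exact Clopper-Pearson intervals (95%) of the reads. Calls used edgeR 4.0.16 in R 4.3.3 (exact test, dispersion 0.01, Benjamini-Hochberg q over 15377 genes above 0 in both libraries). The code was tried on counts simulated with that same dispersion, which cannot show whether the assumed value holds for these mice. Size factors came from DESeq2 1.42.0. Overlaps, start distances and transcripts are from GENCODE M21, in which 58 of 77 members had the same coordinates. Ratios, intervals and figures were made in Python 3.11.15 (scipy 1.17.1, pandas 2.3.3, matplotlib 3.10.9). Members named with values are the 6 highest and 6 lowest in mean FPKM, the 10 largest and 10 smallest log2 ratios among those with at least 20 reads in each library, the Mrps18 paralogs, members with a further role and the member at 0. From other lists the 2 largest and 2 smallest ratios are named. Further genes named, such as Ppargc1b, Gabpb1 and Hcfc1, were chosen after their values were seen. 1 marker gene is not reported here and was left out of its list. The members and lists were chosen with earlier results of these data known.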

Additional observations from a re-analysis of the deposited data

How the results depend on the processing

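With 1 library per time point no replicate could be left out. No paired analysis was possible because each time point has 1 library. The number of members called higher at a ratio of 2 was 13, and 7 with a biological coefficient of variation of 0.2 and 0 with 0.4. At a ratio of 1.5 it was 37, and 7 and 0 under the same settings. The share of all genes called went from 8.11% at a ratio of 2 and 14.6% at 1.5 to 3.91% and 0.189% at either. At a ratio of 1.5, TMM gave 25 members (11.1% of all genes) and median-of-ratios 30 (11.8%), and at a ratio of 2 they gave 10 (6.24%) and 11 (6.54%). The median log2 ratio under TMM was 0.48 for all members, 0.48 for the large and 0.47 for the small subunit. As a share of the reads without mitochondrially encoded genes, the members took 0.479% (week-0) and 0.726% (week-3), and without the 100 genes with the most reads 0.673% and 0.994%.

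An alternative chosen after seeing the data left out members whose exons overlap another gene. Of the 45 members left, 7 were then called at a ratio of 2, 23 at 1.5, and 43 were higher at week-3. Over all genes tested these shares were 8.11%, 14.6% and 53.7%. Requiring at least 50 reads in each library was also chosen after seeing the data. The counts under an exact binomial test, under an FPKM of at least 1 in both libraries and under the 50 reads stayed within 1.5 times, and 0 members were called lower under each alternative tried. The log2 ratios of the 76 members moved by less than the width of their intervals under TMM, median-of-ratios scaling and pseudocounts of 0.1 and 1, with the changes of sign given above for Mrpl4, Mrpl9, Mrpl21 and Mrpl27. Depth limits a member such as Mrps34, on 50 and 56 reads, to an interval of 0.30 to 1.45. The spread between mice is unknown, and a difference in sorting or library preparation cannot be told apart from time. Nor can the removal of doxycycline be told apart from BA induction.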
